A study of Mus musculus with 36 samples.

Results

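The nuclear genes of the mitochondrial respiratory chain were followed in mouse liver. Members were taken by symbol, as every gene whose name begins with Nduf followed by a, b, c, s or v (the complex I series, with the assembly factors named Ndufaf), Uqcr, Cox4 to Cox8 or Atp5, and the genes Sdha, Sdhb, Sdhc and Sdhd. The rule found 92 of the 24421 genes counted. They were 7 core subunits, 29 accessory subunits and 7 assembly factors of complex I, 4 subunits of complex II, 8 of complex III, 11 common subunits of complex IV with 9 tissue isoforms and related genes, and 15 subunits of complex V with 2 genes whose symbols resemble them (Atp5s and Atp5sl).

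The libraries came from 36 livers of male C57BL/6J mice, which were 7 weeks old at purchase. All mice, controls included, were kept for 12 weeks on CDAHFD (60 kcal% fat), a fat-rich diet without choline whose protein is replaced by defined L-amino acids and that gives fatty, inflamed and fibrotic livers. In the first experiment the mice then received a high-fat diet with normal choline (HFD, 60 kcal% fat) for 2 weeks, with a weekly subcutaneous injection of Fc at 4.3 mg/kg (10 mice) or Fc(mML1)B3 at 5 mg/kg (10 mice). In the second, a standard diet was given for 10 days, and Fc at 4.3 mg/kg (9 mice) or Fc(mML1)B3 at 5 mg/kg (7 mice) was injected on days 1, 4 and 7. Fc is the constant part of a human antibody, and Fc(mML1)B3 is the same Fc carrying a Met-binding peptide in a loop, so that it activates Met, the receptor of hepatocyte growth factor. Diet, length of treatment and number of doses changed together between the experiments and cannot be told apart.

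Complexes I and II take electrons from NADH and succinate and pass them through coenzyme Q to complex III, which hands them by way of cytochrome c to complex IV, where oxygen is reduced. Complexes I, III and IV pump protons out of the matrix, and complex V (ATP synthase) uses the returning protons to make ATP. Hepatocytes are rich in mitochondria, since they oxidise fatty acids and pay for gluconeogenesis and urea synthesis with ATP.

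Each library held 14949035 to 28466853 reads assigned to genes, and the members took 1.11% to 1.62% of them. Standard-diet libraries of treated mice were deeper (24772468 to 28466853) than those of their controls (19085473 to 25477135). No gene of the mitochondrial chromosome was among the genes counted, so the subunits encoded there were not analysed here. The tissue label fitted the defining markers: 10 hepatocyte markers summed to between 83660 and 159800 CPM (counts after scaling every library to the same size) per library, skeletal muscle markers to at most 1.95 CPM, adipocyte markers to at most 6.06 CPM and testis markers to at most 0.059 CPM. Fewer cells of a type and less RNA per cell cannot be told apart in bulk liver. The sample numbers in the file headers ran in separate series. Under the HFD the Fc mice carried S1 to S10, treated mice 1 to 4 carried S1 to S4 and treated mice 5 to 10 carried S1 to S6, so series and protein cannot be told apart there. Under the standard diet Fc mice 1 to 5 carried S8 to S12, and Fc mice 6 to 9 shared the run S131 to S143 with all 7 treated mice. None of these runs, as read from the numbers, held mice of both diets, so series and diet cannot be told apart either.

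Levels are given as RPKM, read counts divided by exon length and library size, scaled by TMM (a normalisation that equalises the bulk of genes between libraries) over all 36 libraries. Averaged over all mice, the most abundant members were Ndufa4 (694 ± 110 RPKM, SD, n = 36), which in spite of its name is a complex IV subunit, Atp5b (661 ± 74.4 RPKM), the catalytic beta subunit of ATP synthase, and Cox4i1 (598 ± 107 RPKM), the common form of complex IV subunit 4. Complex medians of the mean RPKM were 336 for the common complex IV subunits, 280 for complex III, 258 for complex V, 164 for complex II, 118 for the accessory and 85.8 for the core subunits of complex I, while the Ndufaf assembly factors had a median of 11.8. The 9 tissue isoforms and related genes of complex IV had a median of 0.438 RPKM. Cox7a2l stood above the rest of them at 87.1 ± 9.64 RPKM, whereas Ndufa4l2 (1.61 ± 0.465), Cox6b2 (0.614 ± 0.398) and Cox6a2 (0.438 ± 0.401), the last a heart and muscle isoform, were the lowest members tested. The 3 symbols Ndufs5, Cox7b2 and Cox8c had no read in any library. The exons of Ndufs5 overlap those of another gene on the same strand, so its 0 is not a measure of its level. Cox4i2, Cox6a2, Cox6b2 and Cox8b also fell below the filter on low counts in each diet's fit, which left 85 members tested per diet.

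**Figure D1:**
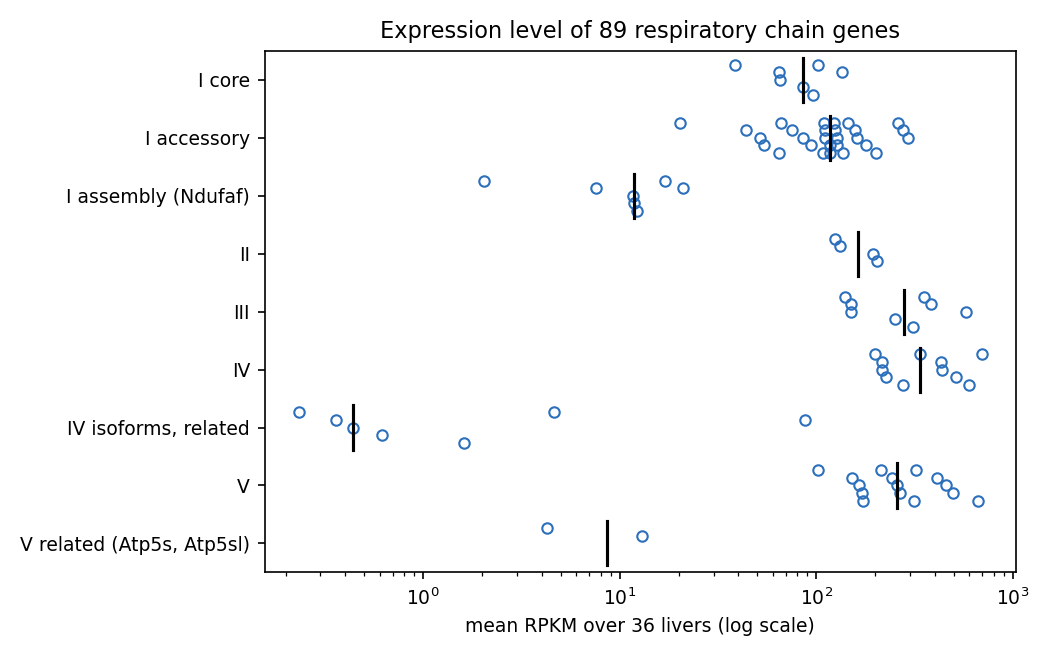
Mean RPKM over the 36 mice on a logarithmic axis for the 89 members with reads, by complex, each point a gene and each black line the median of all listed members of that role. Subunits of complexes III, IV and V lie highest, with medians of 280, 336 and 258 RPKM, assembly factors have a median of 11.8 RPKM, and the tissue isoforms and related genes of complex IV have a median of 0.438 RPKM, with Cox7a2l far above the others at 87.1 RPKM.

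Under the HFD many members were high or low in the same mice, and less so under the standard diet. By mouse, 5 to 83 of the 87 members tested jointly lay above their group's median under the HFD. Under the standard diet it was 15 to 62. As a summary, each mouse was given the median over the 87 members tested jointly of the log2 ratio of RPKM to that gene's mean over all mice. Under the HFD this value was lowest, median and highest at -0.24, 0.01 and 0.38 in Fc mice and at -0.17, 0.12 and 0.42 in Fc(mML1)B3 mice. The HFD groups overlapped over most of their range. Under the standard diet it ran at -0.27, -0.17 and -0.12 in Fc mice and at -0.12, -0.06 and 0.00 in treated mice, so that the groups met at their edges. The typical between-mouse SD of a member (log2 RPKM) was 0.22 in both HFD groups against 0.09 and 0.08 in the standard-diet groups, and that of the other genes 0.25 and 0.26 against 0.18 and 0.17. Single mice set the HFD range. Fc mouse 3 was highest of its group for 69 of the 87 members and Fc mouse 9 lowest for 38, while treated mouse 2 was highest for 46, treated mouse 10 for 29, and treated mouse 5 lowest for 57. The TMM factors, which multiply library size, were 0.9165 and 1.118 in Fc mice 3 and 9. In treated mice 2, 10 and 5 they were 0.909, 0.8928 and 1.204. By share of reads, Fc mouse 3 (1.57%) and treated mouse 2 (1.62%) were also highest of their groups. Treated mouse 5 (1.41%) lay above treated mice 6 to 9 (1.35% to 1.40%). The part of scaling in this spread was not tested. Hepatocyte marker sums were 149780 CPM in Fc mouse 3 and 98959 in Fc mouse 9, and 159820 in treated mouse 10 and 83657 in treated mouse 5. Of the 5 HFD mice per group with marker sums above their group's median, 4 had a member value above its median among Fc mice and 4 among treated mice, against 1 of 4 Fc mice and 1 of 3 treated mice under the standard diet. Among the exceptions, Fc mouse 8 had 122290 CPM with a member value of -0.11, treated mouse 6 had 142950 CPM with 0.03, and standard-diet Fc mouse 4 had the highest sum (147810 CPM) and the lowest member value (-0.27) of its group. Marker sums and member values were scaled by the same TMM factors, which ties them in part. These factors ran from 0.8928 to 1.204 under the HFD and from 0.944 to 1.047 under the standard diet. The part of cell composition in the members' levels was not tested. By header series, the treated HFD mice numbered S1 to S4 lay at 0.21 to 0.42 and those numbered S1 to S6 at -0.17 to 0.38.

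**Figure D2:**
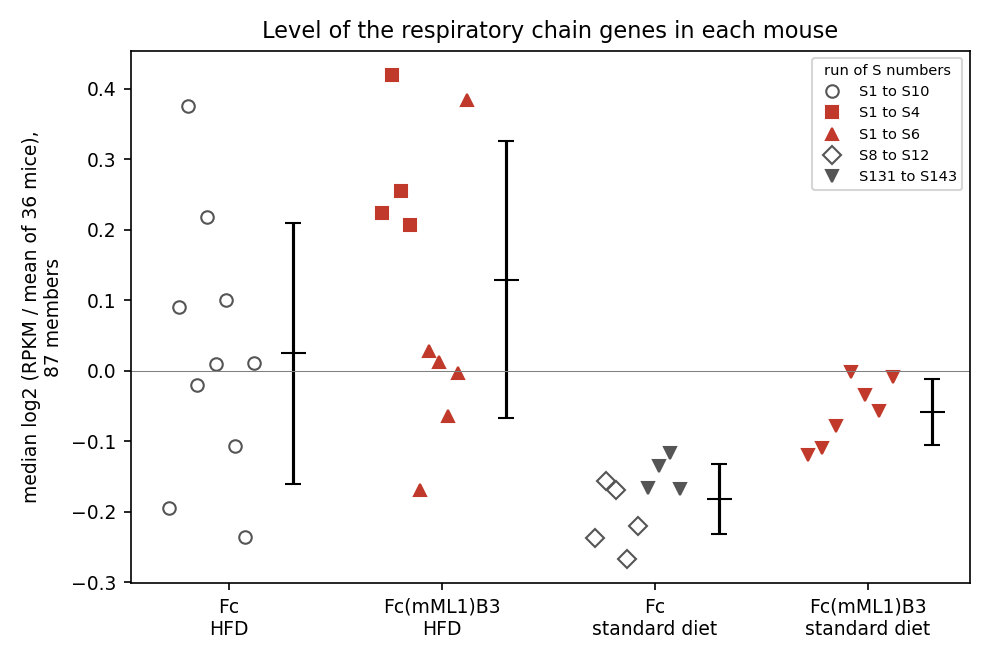
Median log2 deviation of the 87 members from their mean over all mice, 1 point per mouse, with bars for the mean ± SD of each group and marker shapes for the series of sample numbers. The HFD groups spread from -0.24 to 0.42 and overlap, while the standard-diet Fc mice lie at -0.27 to -0.12 and the treated mice at -0.12 to 0.00.

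Whether activating Met changed respiratory chain transcripts was asked first under the standard diet. With Fc(mML1)B3, 30 of the 85 members tested (35.3%) were higher and 0 lower in edgeR's quasi-likelihood test at an adjusted p below 0.05, against 8.56% of all 13570 genes higher and 7.55% lower. The changes were small. The median member log2 fold change was 0.12 (median standard error 0.05), against -0.01 over all genes, and 82 of 85 members lay above 0, against 47.5% of all genes. Ndufaf4 alone passed an additional limit of 1.5-fold, the less strict of the limits that the study states for this diet, which 1.05% of genes passed upwards and 1.31% downwards. No member reached 2-fold, the stricter one. At an unadjusted p below 0.05, 51 members were higher. The count varied with the fit and the mice: it was 1 (Ndufaf4) when all 36 libraries entered 1 fit, where 3.25% of genes were higher, 4 (Ndufaf4, Ndufa8, Ndufb10 and Atp5g1) within the run S131 to S143, where 3.77% of genes were higher, and 15, 17 and 18 without treated mouse 7, 4 and 6, where 7.11%, 6.96% and 6.64% were. Within that run the median was 0.09 and 78 of 85 members were above 0. With library totals in place of TMM the count was 14, where 5.73% of genes were higher.

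Complex I carries the entry point for NADH. Of its core subunits, 3 of 7 rose under the standard diet (Ndufv2, Ndufs3 and Ndufs1), as did 6 of 28 accessory subunits tested (Ndufa5, Ndufa8, Ndufa12, Ndufab1, Ndufb5 and Ndufb10). Ndufv2, an iron-sulfur subunit of the NADH-oxidising arm, had 50.3, 51.9 and 56.3 RPKM (lowest, median, highest) in Fc mice and 56.7, 58.8 and 64.8 RPKM in treated mice. These groups did not overlap, as for 1.83% of all genes in this direction and for 4 members (Ndufaf4, Ndufv2, Uqcr10 and Atp5o), and the log2 fold change was 0.19 (SE 0.038, adjusted p = 0.00204). Ndufa5, an accessory subunit of the arm that reaches into the matrix, stood at 85.5, 92.7 and 105 RPKM in Fc mice and at 99.8, 113 and 118 RPKM in treated mice. All 7 treated mice lay above the Fc median although the ranges overlapped, and the log2 fold change was 0.23 (SE 0.046, adjusted p = 0.00161). Ndufs3, a core subunit of the matrix arm, rose by 0.22 (SE 0.051, adjusted p = 0.00538). Ndufs1, which carries iron-sulfur clusters, gave 0.14 with adjusted p = 0.0416, a call that 16 of 24 alternatives lost. Ndufa12 lost its call in 12 of 24. Of these complex I subunits, only Ndufa8 and Ndufb10 were called within S131 to S143, and none with all 36 libraries in 1 fit.

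Ndufaf4, an assembly factor that acts early in building complex I, changed most. The gene lies at chr4:24898083-24905001 on the forward strand (mm10). Its level under the standard diet was 7.82, 8.62 and 9.79 RPKM in Fc mice and 12.6, 14.1 and 14.98 RPKM in treated mice, each library holding 581 to 1490 of its reads. Every treated mouse lay above every Fc mouse. The log2 fold change was 0.68 (1.60-fold, SE 0.050, adjusted p = 4.05e-08), the fifth smallest p of all genes, and within the run S131 to S143 it was 0.62 (SE 0.060, adjusted p = 4.45e-05). Under the HFD the same gene stood at 8.18, 11.5 and 16.7 RPKM in Fc mice and at 8.67, 13.9 and 15.2 RPKM in treated mice, with full overlap (log2 fold change 0.13, SE 0.125, adjusted p = 0.501). The standard-diet treated mice thus matched the upper part of the HFD range, and the standard-diet Fc mice its lower end. Of the other Ndufaf factors, Ndufaf6 passed the test (log2 fold change 0.30, SE 0.101, adjusted p = 0.0486), with 7.54, 9.49 and 11.4 RPKM in Fc mice and 10.8, 11.6 and 14.9 RPKM in treated mice. That call was lost in 15 of 24 alternatives, among them S131 to S143 alone (0.20, adjusted p = 0.345) and the fits without Fc mouse 1, 2, 4, 5 or 6 or any treated mouse but mouse 3.

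The promoter of Ndufaf4 is shown because it is the member with the largest fold change under the protein and holds the full binding palindrome of NRF1 (nuclear respiratory factor 1, a regulator of many respiratory chain genes). RefSeq promoters (GRCm38.p6, 250 bases before to 50 after each start) were matched for 73 of the 92 members, and the letters were searched on both strands. The NRF1 motif, the 5 letters GCGCA followed by their reverse complement TGCGC, occurred in 7 of the 73 (9.59%) against 1.07% of 27025 genes. The members were Ndufa11, Ndufaf4, Ndufaf5, Uqcrc1, Cox6a1, Atp5g2 and Atp5k. Of these 7, Ndufaf4, Uqcrc1 and Cox6a1 were called higher under the standard diet, where 35.3% of all members tested and 8.56% of all genes were. Uqcrc1 and Cox6a1 lost their calls within S131 to S143. The whole 250 bases before the Ndufaf4 start (chr4:24897833-24898082, forward strand, the match beginning 113 bases before the start) follow, with 50-base windows around the match of the other 4 members in which it lies before the start. Capitals mark the NRF1 motif.
Ndufaf4: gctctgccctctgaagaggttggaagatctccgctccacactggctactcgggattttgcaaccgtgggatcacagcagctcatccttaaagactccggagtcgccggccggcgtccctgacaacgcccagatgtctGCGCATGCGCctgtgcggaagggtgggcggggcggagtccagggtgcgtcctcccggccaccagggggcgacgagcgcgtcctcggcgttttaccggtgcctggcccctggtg
Ndufa11: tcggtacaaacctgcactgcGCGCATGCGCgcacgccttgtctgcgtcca
Cox6a1: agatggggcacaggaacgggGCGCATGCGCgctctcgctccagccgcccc
Atp5g2: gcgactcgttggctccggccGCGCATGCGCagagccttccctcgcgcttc
Atp5k: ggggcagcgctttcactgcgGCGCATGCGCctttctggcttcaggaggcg
These windows lie at chr17:56717682-56717731 (Ndufa11, forward), chr5:115349091-115349140 (Cox6a1, reverse), chr15:102671060-102671109 (Atp5g2, reverse) and chr5:108434420-108434469 (Atp5k, reverse), with the match beginning 60, 162, 42 and 50 bases before the start. Other letters searched were those of ETS factors such as GABPA (CCGGAAGT, in 6.85% of members and 4.31% of genes), YY1 (AAGATGGCG, 9.59% and 1.64%), ERR receptors (TCAAGGTCA, 2.74% and 0.466%, the members being Sdhd and Atp5g3) and the E-box of clock and MYC factors (CACGTG, 6.85% and 8.09%). None of these motifs contains another. A match describes the letters in the window and not a site in use.

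Complex II oxidises succinate and is also an enzyme of the citric acid cycle. Sdhd, a membrane anchor, rose under the standard diet from 102, 115 and 125 RPKM in Fc mice to a lowest value of 122.2 and a median of 132.9 RPKM in treated mice, with all 7 treated mice above the Fc median and the ranges just overlapping (log2 fold change 0.20, SE 0.044, adjusted p = 0.00342). The other anchor Sdhc (0.12, adjusted p = 0.0699), the iron-sulfur subunit Sdhb (0.13, adjusted p = 0.084) and the flavoprotein Sdha (0.04, adjusted p = 0.581) did not pass. The Sdhd call was lost within S131 to S143 (0.16, adjusted p = 0.0831) and with all 36 libraries in 1 fit.

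In complex III, 6 of 8 members were called (Uqcr10, Uqcrb, Uqcrfs1, Uqcr11, Uqcrc1 and Uqcrc2), but 0 were within S131 to S143 or with all 36 libraries in 1 fit. Uqcr10, a small subunit, had 250, 285 and 293 RPKM in Fc mice and 304, 317 and 346 RPKM in treated mice. The groups did not overlap (log2 fold change 0.21, SE 0.044, adjusted p = 0.00248). Uqcrb, a subunit near the quinone site, gave 268, 307 and 313 RPKM against 307, 346 and 362 RPKM (0.19, SE 0.043, adjusted p = 0.00467), and 6 of 7 treated mice were above the Fc median. Uqcrfs1, the Rieske iron-sulfur protein, rose by 0.17 on the log2 scale (SE 0.041, adjusted p = 0.00755). Uqcrc2, a core protein, was the called member closest to the threshold (0.12, adjusted p = 0.0489), and 19 of 24 alternatives lost its call.

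Complex IV had fewer. Among its 11 common subunits, Cox8a (301, 323 and 346 RPKM in Fc mice, 332, 349 and 381 in treated mice) and Cox6a1 (389, 416 and 463 RPKM against 445, 464 and 484) rose, both with every treated mouse above the Fc median. Their log2 fold changes were 0.14 (SE 0.040, adjusted p = 0.0213) and 0.14 (SE 0.042, adjusted p = 0.0284). Ndufa4 and Cox4i1, the most abundant subunits, gave 0.02 (adjusted p = 0.799) and 0.07 (adjusted p = 0.328). Cox7a2l, a relative of the Cox7a subunits, rose by 0.16 (SE 0.042, adjusted p = 0.0123), from 74.0, 82.4 and 86.7 RPKM to 85.5, 90.7 and 96.9 RPKM. The muscle isoform Cox7a1 (-0.08, adjusted p = 0.815) and Ndufa4l2 (-0.20, adjusted p = 0.519) did not pass, and both were under 6 RPKM in every standard-diet mouse. Cox8a, Cox6a1 and Cox7a2l lost their calls within S131 to S143 and with all 36 libraries in 1 fit.

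In complex V, 9 of 15 subunits rose, among them the catalytic alpha and beta subunits Atp5a1 (0.17, SE 0.050, adjusted p = 0.0216) and Atp5b (0.16, SE 0.047, adjusted p = 0.0288). Atp5b stood at 555, 609 and 643 RPKM in Fc mice and at 631, 664 and 765 RPKM in treated mice. Atp5j, which encodes coupling factor 6 of the stalk, had the smallest p of the complex, with 211, 235 and 249 RPKM against 245, 261 and 270 RPKM (0.15, SE 0.038, adjusted p = 0.011). Atp5o, the subunit that ties the stalk to the catalytic head, did not overlap between groups, at 179, 194 and 196 RPKM against 199, 208 and 222 RPKM (0.14, SE 0.037, adjusted p = 0.0135). The remaining called subunits were Atp5c1, Atp5f1, Atp5g3, Atp5h and Atp5j2. All 9 calls were lost within S131 to S143 and with all 36 libraries in 1 fit. Atp5h lost its call in 13 of 24 alternatives.

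**Figure D3:**
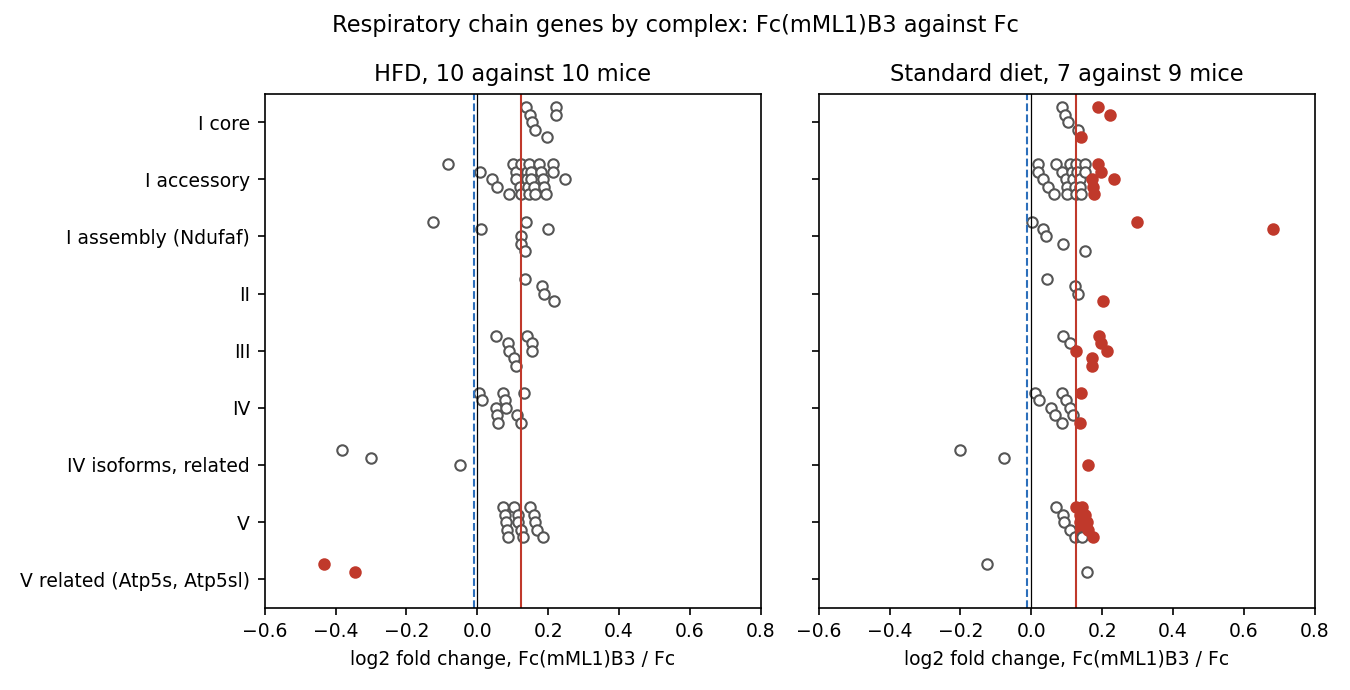
Log2 fold change of Fc(mML1)B3 over Fc for each tested member by complex under the HFD and the standard diet, filled red where the adjusted p was below 0.05 and open otherwise, with a red line at the member median and a blue dashed line at the median of all genes. Member medians are 0.12 in both diets and medians of all genes -0.01, but 30 members are filled under the standard diet and 2, both below 0, under the HFD.

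Under the HFD, 0 of 85 members were higher with Fc(mML1)B3 and 2, Atp5sl and Atp5s, were lower by edgeR, against 8.14% of all 13299 genes higher and 6.68% lower. With the study's limits for this diet (adjusted p below 0.1 and 2-fold), 0 members passed, against 0.662% of genes upwards and 0.677% downwards. At an unadjusted p below 0.05, 9 members were higher. DESeq2 and limma-voom each called 0 members higher too. The median member log2 fold change was 0.12 with a median standard error of 0.10, and 78 of 85 members were above 0 (48.3% of all genes were). With library totals in place of TMM the median was 0.03 and 56 members were above 0, where the median of all genes was -0.10. No member was free of overlap between groups, which 0.511% of genes were upwards and 0.406% downwards. Header series divided the treated mice: set against all Fc mice, those numbered S1 to S4 gave a member median of 0.28 with 82 of 86 above 0, and those numbered S1 to S6 gave 0.02 with 52 of 86 above 0. With all 36 libraries in 1 fit, 7 of 87 members were called higher (Ndufa8, Ndufa10, Ndufb3, Ndufb6, Ndufs1, Sdha and Sdhc), a smaller share than the 10.9% of all genes, and 3 of 85 were without Fc mouse 3, Fc mouse 5 or treated mouse 5, where 8.76%, 8.28% and 10.5% of genes were.

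The members of smallest p in each complex missed the threshold. Ndufa8, an accessory subunit of complex I, gave 0.25 (SE 0.092, adjusted p = 0.0739), with 105, 129 and 170 RPKM in Fc mice and 125, 155 and 196 RPKM in treated mice, 9 of 10 treated mice lying above the Fc median. Ndufs1 gave 0.20 (SE 0.075, adjusted p = 0.081) and Sdhc 0.22 (SE 0.086, adjusted p = 0.0929). For Sdha the log2 fold change was 0.19 (adjusted p = 0.117), for Sdhb 0.18 (adjusted p = 0.264) and for Sdhd 0.14 (adjusted p = 0.363). Atp5g2, a membrane ring subunit of complex V, gave 0.18 (adjusted p = 0.141), Ndufaf6 0.20 (adjusted p = 0.173), Uqcrc2 0.14 (adjusted p = 0.214) and Ndufa4 0.12 (adjusted p = 0.43). The 7 members below 0 were Atp5sl, Atp5s, Cox7a1, Ndufa4l2, Ndufaf3, Ndufc1 and Cox7a2l.

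Atp5sl and Atp5s are not subunits of ATP synthase. Atp5sl, now also called Dmac2, encodes an assembly factor of the membrane arm of complex I, and Atp5s (Dmac2l) is its relative. Atp5sl (chr7:25619414-25625550, forward strand) had 9.52, 14.3 and 17.7 RPKM in Fc mice and 8.30, 10.4 and 12.97 RPKM in treated mice under the HFD. All 10 treated mice lay below the Fc median, with overlap at the low end (log2 fold change -0.43, SE 0.108, adjusted p = 0.00862). Atp5s (chr12:69724962-69744658, forward strand) had 4.23, 4.75 and 5.98 RPKM in Fc mice and 2.75, 3.43 and 4.98 RPKM in treated mice (-0.35, SE 0.116, adjusted p = 0.0461). Its call sat at the threshold, 16 of 28 alternatives losing it, among them those without Fc mouse 2 to 8 or treated mouse 2 or 6 to 10, while Atp5sl, apart from the fold limit, lost its call with treated mice S1 to S4 alone (adjusted p = 0.286). Under the standard diet Atp5sl went from 11.2, 13.6 and 15.3 to 12.5, 14.8 and 17.5 RPKM (0.16, adjusted p = 0.2) and Atp5s from 3.14, 4.41 and 5.45 to 3.37, 3.95 and 4.49 RPKM (-0.13, adjusted p = 0.459). Clock transcripts differed between the HFD groups at the same time: Arntl stood at 0.214 to 0.73 RPKM in Fc mice and 2.27 to 9.85 RPKM in treated mice, and Dbp at 43.5 to 79.5 against 1.87 to 14.8 RPKM. Under the standard diet the Arntl ranges were 0.789 to 2.21 and 0.316 to 1.16 RPKM, and the Dbp ranges 21.4 to 55.4 and 32.9 to 67.4 RPKM. What part the time of day at collection had in the members' values was not tested.

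**Figure D4:**
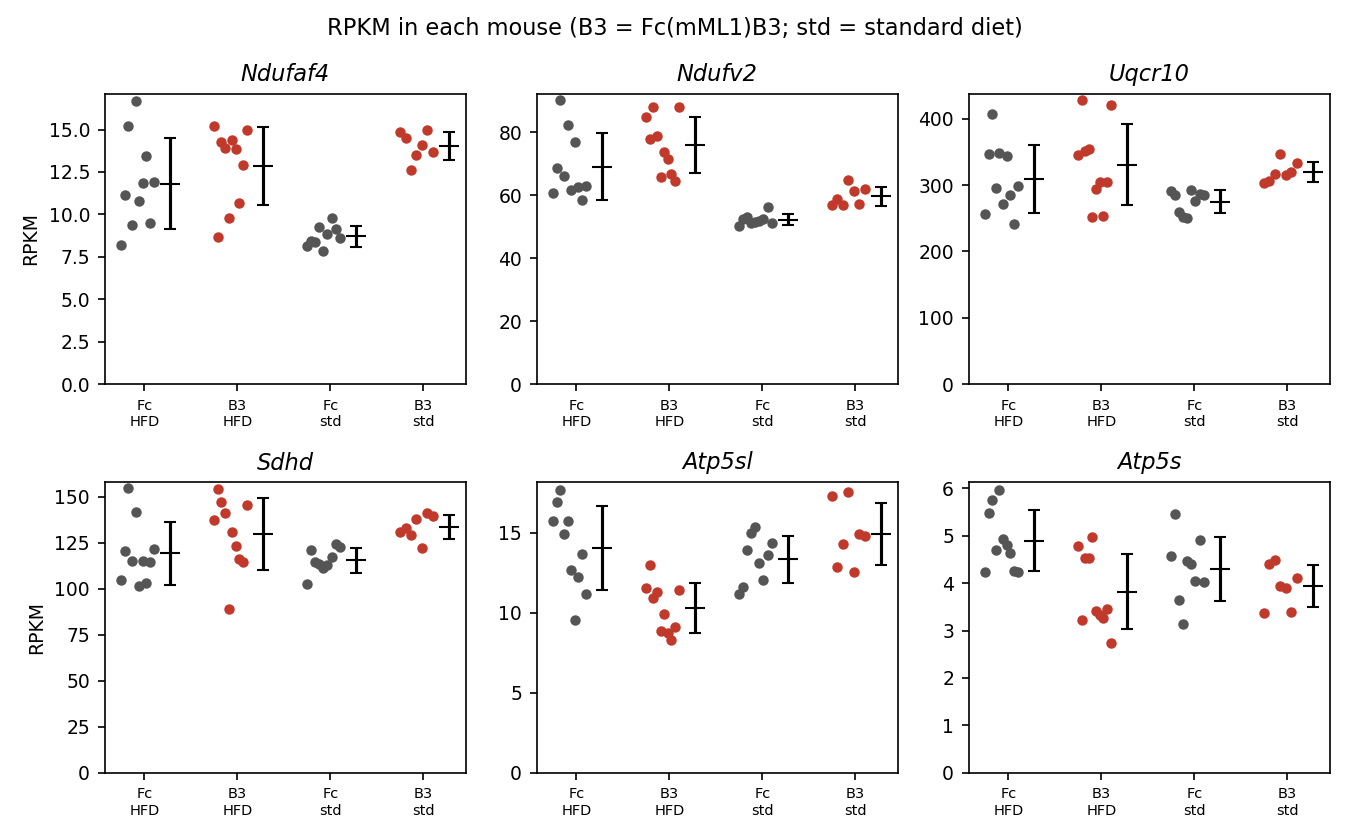
RPKM per mouse, on linear axes, of Ndufaf4, Ndufv2, Uqcr10, Sdhd, Atp5sl and Atp5s in the 4 groups, with bars for the mean ± SD. Ndufaf4 lies at 7.82 to 9.79 RPKM in standard-diet Fc mice and at 12.6 to 14.98 RPKM in treated mice, and Atp5sl has a median of 14.3 RPKM in HFD Fc mice and 10.4 RPKM in treated mice.

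Whether the protein's effect differed between the diets was tested as an interaction over all 36 libraries. The difference was positive (more upward change under the standard diet) for 2 of 87 members, Atp5sl and Ndufaf4, and negative for 0, against 4.66% of 14105 genes positive and 4.4% negative. Atp5sl differed by 0.61 on the log2 scale (SE 0.141, adjusted p = 0.00367) and Ndufaf4 by 0.56 (SE 0.150, adjusted p = 0.0116), and, save for the fold limit that Ndufaf4 missed, both calls stood in the alternatives tried. At 1.5-fold, 2.16% of genes were positive and 2.04% negative. The member next in order was Cox7a2l, with a difference of 0.22 (SE 0.103, adjusted p = 0.197). The median over members was 0.02, as over all genes (0.02), with a median standard error of 0.12, and 54 members were above 0 (62.1%, against 52.9% of all genes). The 30 and 0 members called higher in the separate fits came with median standard errors of 0.05 under the standard diet and 0.10 under the HFD.

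The Fc groups compared the diets without the Met agonist. Respiratory chain transcripts were lower under the standard diet than under the HFD in 47 of 87 members (54.0%) and higher in 1 (Sdha), against 24.6% of all genes lower and 23.3% higher. The median member log2 difference was -0.23 (all genes -0.05), and 6 members lay above 0 (6.90%, against 45% of all genes). At 1.5-fold and an adjusted p below 0.05, 0 members were higher and 1 (Cox7a1) lower, against 6.75% and 9.06% of genes. By role, 12 of 15 complex V subunits, 7 of 11 common complex IV subunits, 16 of 28 accessory and 2 of 7 core subunits of complex I, 5 of 7 Ndufaf factors, 4 of 8 complex III subunits and 0 of 4 complex II subunits were lower. Cox5b, a nuclear subunit of complex IV, fell from 247, 302 and 400 RPKM under the HFD to 199, 213 and 239 RPKM under the standard diet, without overlap (-0.52, SE 0.085, adjusted p = 4.53e-06). Atp5g1, which encodes the membrane ring subunit like Atp5g2, fell from 144, 177 and 242 to 115.4, 123.4 and 141.6 RPKM, also without overlap (-0.58, SE 0.094, adjusted p = 4.62e-06). Lack of overlap in this direction was seen for 6 members and 1.95% of all genes, and in the other for 0 members and 7.47% of genes. Ndufv2 (-0.40, SE 0.070, adjusted p = 1.24e-05), Atp5h, a stalk subunit (-0.39, SE 0.074, adjusted p = 5.08e-05), and Ndufa12, an accessory subunit of complex I (-0.38, SE 0.074, adjusted p = 5.43e-05), followed. Ndufaf4 was lower by 0.44 on the log2 scale, at -0.44 (adjusted p = 0.000671), and the muscle isoform Cox7a1 at -0.59 (SE 0.240, adjusted p = 0.0419). The Cox7a1 call was lost in 11 of 24 alternatives (highest adjusted p 0.114), namely with limma-voom and without HFD Fc mouse 2, 4, 7, 8 or 9 or standard-diet Fc mouse 2, 3, 4, 7 or 9. Sdha went the other way, from 149, 184 and 211 to 191, 208 and 227 RPKM (0.19, SE 0.066, adjusted p = 0.0191), a call lost with upper-quartile scaling and with library totals. Also lower under the standard diet were 6 of 9 stellate cell, 5 of 9 macrophage, 2 of 5 cholangiocyte and 1 of 4 neutrophil markers, against 24.6% of all genes. Hepatocyte markers were higher in 3 of 10 and endothelial markers in 1 of 6, against 23.3% of all genes. Their part in the members' difference was not tested.

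**Figure D5:**
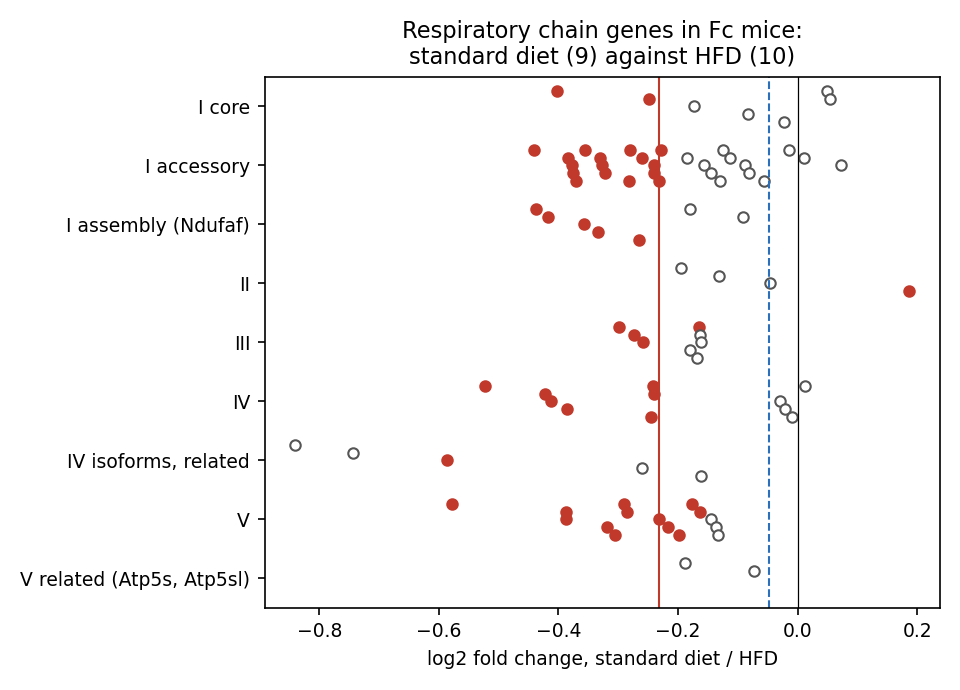
Log2 difference between the standard diet and the HFD in Fc mice for each of the 87 members tested, by complex, filled red where the adjusted p was below 0.05, with a red line at the member median (-0.23) and a blue dashed line at the median of all genes (-0.05). The filled points lie below 0 except Sdha at 0.19, and complex V has 12 of 15 filled.

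Other mitochondrial gene lists were counted in the same fits, in which 8.56% of all genes were higher under the standard diet and 8.14% under the HFD. Assembly factors of complex I not named Ndufaf rose in 4 of 9 under the standard diet, led by Foxred1 (0.23, SE 0.040, adjusted p = 0.000647), and in 0 of 9 under the HFD. For complexes II and III the numbers were 3 of 10 (Uqcc1 0.33, adjusted p = 0.000233, needed for cytochrome b synthesis, Sdhaf1 0.40 and Sdhaf3 0.25) and 0 of 10. Complex IV factors rose in 5 of 21, with Coa6, a copper-handling factor, at 0.54 (SE 0.063, adjusted p = 7e-06), and under the HFD in 4 of 21, with Lrpprc, which stabilises mitochondrial mRNAs, at 0.31 (SE 0.071, adjusted p = 0.00373). Of 4 complex V assembly and inhibitor genes, 0 passed under either diet, where the smallest adjusted p-values were 0.0595 (Tmem70) and 0.288 (Atpif1). Cycs, cytochrome c itself, rose under both diets, by 0.24 (adjusted p = 0.00826) under the standard diet and 0.38 (SE 0.098, adjusted p = 0.0104) under the HFD, but neither call held within header series (0.16, adjusted p = 0.152 in S131 to S143, and 0.41, adjusted p = 0.0551 and 0.37, adjusted p = 0.0572 with treated mice S1 to S4 and S1 to S6). Other electron carriers added 2 of the 15 listed (Coq2 and Coq7), both under the standard diet.

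Citric acid cycle enzymes rose in 7 of 13 under the standard diet, Idh3a, of NAD-dependent isocitrate dehydrogenase, by 0.54 (SE 0.057, adjusted p = 2.92e-06), and in 0 of 13 under the HFD, where Suclg2 had the smallest adjusted p (0.0722). Mitochondrial ribosome proteins were higher in 17 of 77 under the standard diet, led by Mrpl15 (0.34, adjusted p = 8.29e-05), and in 2 of 77 under the HFD, a smaller share than over all genes, led by Mrpl4 (0.37, adjusted p = 0.00148). Genes of protein import, chaperones and transcription rose in 11 of 15 and fell in 1 under the standard diet, where Tomm40, the import pore, gave 0.49 (SE 0.063, adjusted p = 2.59e-05). In the HFD mice 4 of 15 rose. Clpx, part of a matrix protease, went in opposite directions, up by 1.67 (SE 0.163, adjusted p = 5.38e-07) under the HFD and down under the standard diet (-0.79, SE 0.109, adjusted p = 5.22e-05). Among 14 biogenesis regulators, Esrra, a nuclear receptor that drives respiratory genes, rose under the standard diet by 0.63 (SE 0.071, adjusted p = 5.12e-06), with Polg2 (0.51, adjusted p = 0.00372), of the mitochondrial DNA polymerase, and Tfam (0.15, adjusted p = 0.0107), which packages that DNA. Within S131 to S143 Esrra gave 0.54 (adjusted p = 0.00259) and Polg2 lost its call (0.46, adjusted p = 0.0673). Under the HFD Polrmt rose (0.25, adjusted p = 0.0155), while Polg2 (-0.49, SE 0.121, adjusted p = 0.00779) and the coactivator Ppargc1b (-0.77, SE 0.199, adjusted p = 0.0113) fell, the Polg2 call being lost with treated mice S1 to S4 alone (-0.33, adjusted p = 0.194). Of the cell type markers, 2 of 10 hepatocyte genes were higher with the protein under the standard diet, and 2 of 9 stellate, 1 of 9 macrophage, 1 of 5 cholangiocyte and 0 of 6 endothelial genes were lower, where 8.56% of all genes were higher and 7.55% lower. Under the HFD 1 of 10 hepatocyte genes was higher and 3 of 4 neutrophil genes were lower, where 8.14% of all genes were higher and 6.68% lower. Their summed levels overlapped between the groups of each diet, for example 116400 to 147800 CPM and 124900 to 139900 CPM for hepatocyte markers under the standard diet, and their part in the members' values was not tested.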

How the data were processed

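RNA sequencing of liver was analysed in 36 mice. The authors trimmed reads with fastp, removed ribosomal RNA with Bowtie2 2.4.5, aligned to mm10 with STAR 2.7.10a and counted with featureCounts (Subread 2.0.3), and the deposited values are raw counts per gene. Per the file headers, the command set neither strand nor counting of read pairs, which in this version leaves mates counted singly and both strands together. Strand was thus not used to assign reads where genes overlap (10 members).

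Counts were tested with edgeR 4.0.16 (R 4.3.3, TMM, filterByExpr, quasi-likelihood F test), with 20 libraries under the HFD, 16 under the standard diet and 36 for the interaction and the Fc diet contrast. A call was a two-sided Benjamini-Hochberg adjusted p below 0.05 over all genes tested, with no fold limit. RPKM used exon lengths from the files and joint TMM, so its ratios can differ slightly from the fitted fold changes. DESeq2 1.42.0, limma-voom (limma 3.58.1), other scalings, filters, the study's limits, a replicate block, header series and leaving out each mouse were alternatives. A 0 allows up to 3 counts, and this limit covers counting error only. P-values set each group difference against the spread between mice within groups. The scripts were tested on simulated counts. All 147 pairs of libraries within groups differed by more than sampling noise (lowest chi-square per degree of freedom 6.31).

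Mice of the same replicate number did not deviate together (correlations -0.669 to 0.356 in 10 HFD pairs and -0.191 to -0.00889 in 7 standard-diet pairs), so the fits have no block. Members and lists were chosen with earlier results of these data known. Genes named were the 5 members of smallest p called in each direction and contrast, the member of smallest p in each role, the Sdh genes, complex IV tissue isoforms, the 3 highest and 3 lowest members, members below the filter and the leading gene of each other list. Others given by value (Ndufs3, Uqcrb, Uqcrfs1, Uqcrc2, Cox6a1, Atp5a1, Atp5o, Sdhaf1, Sdhaf3, Coq2, Coq7, Polrmt, Tfam, Ppargc1b, Arntl and Dbp) were chosen after their values were seen.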

Additional observations from a re-analysis of the deposited data

Results flagged for a closer look

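In 6 of the 124 groups of mice tested for an extreme value (chance gives about 1 in 20), 1 mouse stood apart from the rest. Cox6a2, a muscle isoform, had 2.28 RPKM in HFD Fc mouse 7 (next highest 0.747), and Cox6b2, a testis isoform, 1.98 RPKM in HFD treated mouse 5 (next 0.965). Ndufa5 stood at 165 RPKM in HFD Fc mouse 3 (next 125), the mouse that was also highest of its group for 69 of 87 members. In standard-diet treated mouse 7, Ndufaf6 had 14.9 RPKM (next 12.3) and Ndufs1 44.8 RPKM (next 41.7), and Ndufv2 had 56.3 RPKM in standard-diet Fc mouse 8 (next 53.0).

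The response to Fc(mML1)B3 differed between the diets by the interaction test in edgeR for Atp5sl (0.61 on the log2 scale, SE 0.141, adjusted p = 0.00367) and Ndufaf4 (0.56, SE 0.150, adjusted p = 0.0116). Among the leading genes of the other lists, it differed for Uqcc1 (0.34, SE 0.095, adjusted p = 0.0163), Polg2 (1.02, SE 0.165, adjusted p = 4.27e-05), Esrra (0.68, SE 0.127, adjusted p = 0.000315) and Clpx (-2.45, SE 0.217, adjusted p = 4.38e-10). Diet, treatment length, dosing and header series cannot be told apart in these differences.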

How the results depend on the processing

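Of 5159 alternative values for the genes named, 4929 stayed on their side of the threshold, 162 lost their call and 68 gained one. The sign differed from the reported value in 104, of which 0 were called in either fit. For members higher under the standard diet (30), the share of all genes higher is given in brackets (8.56% in the main fit). They were 14 with library totals (5.73%), 1 with the study's limits (1.05%) and 1 with all 36 libraries in 1 fit (3.25%). S131 to S143 alone gave 4 (3.77%), and header series as a covariate, chosen after seeing the data, 5 (3.85%). DESeq2 gave 40 (9.76%) and limma-voom 34 (8.69%). Under the HFD, members lower (2) were 1 with RLE scaling, 1 with the filter of 1 read, 1 with that of 0.5 CPM, 0 with the study's limits and 0 for treated mice S1 to S4, and members higher (0) were 7 in the joint fit and 1 for S1 to S4, where 10.9% and 2.99% of all genes were higher. Positive interactions (2) were 1 with the study's limits. In the Fc diet contrast, members higher (1) were 0 with upper-quartile scaling, library totals or the study's limits, and members lower (47) were 1 with those limits and 68 with either scaling. The cause of these shifts was not tested.

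Across all genes, higher against lower calls were 1083 and 889 under the HFD but 472 and 1256 with library totals, 1162 and 1024 under the standard diet but 777 and 1292, and 3288 and 3471 in the Fc diet contrast but 2322 and 4470. For the interaction 657 and 621 became 736 and 397, or 566 and 709 with RLE.

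With the replicate number as a block, members higher under the standard diet were 12 (26 in the same 14 libraries without it), where 5.3% of all genes were higher. Members lower under the HFD were 1, where 563 of 13299 genes were lower. The numbers do not pair the mice.

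Leaving out 1 mouse at a time gave 0 to 3 members higher and 1 to 2 lower under the HFD (median 0.10 to 0.19), 15 to 35 higher and 0 to 0 lower under the standard diet (median 0.11 to 0.14), and 2 to 2 positive and 0 to 0 negative interactions. The interaction median ran from -0.0374 (without HFD Fc mouse 3) to 0.0408, and was -0.00133, -0.0111 and -0.0144 without HFD Fc mouse 5 and treated mice 5 and 8. The Fc diet contrast gave 1 to 1 higher and 34 to 49 lower (median -0.26 to -0.17).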
